A study of Homo sapiens with 12 samples.

Results

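The SLAM family of surface receptors was described here as 8 genes, CD48, SLAMF1, LY9, CD244, CD84, SLAMF6, SLAMF7 and SLAMF8, out of 19775 genes measured. Its members were taken as every probe set, meaning every group of short array probes for 1 transcript, that the platform annotation paired with one of these symbols, which gave 24 probe sets of 54613. The family was chosen on measured values of the same arrays, namely the lower CD48 and SLAMF7 with inhibitor than with DMSO, so those differences are given as a description with no test. The arrays carried RNA of INA-6, a human myeloma line kept in medium with 2 ng/ml interleukin-6 and 10% serum, in 3 groups of 4 arrays. Cells received DMSO, which was the solvent and the control, or SB590885, a Raf inhibitor, or PD325901, a MEK inhibitor. No group carried an engineered allele per the labels, all groups were of a single cell line, and the sources used here give neither the inhibitor concentrations nor the treatment times. All values are log2 expression per probe set, and the p-values reflect how arrays of a group vary, which the design text calls biological replicates.

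SLAM receptors are immunoglobulin-type proteins of blood cells, and most of them bind a copy of themselves on the neighbouring cell. CD48 differs from the others in being held in the membrane by a glycosylphosphatidylinositol (GPI) anchor instead of a transmembrane segment, and its high-affinity partner is CD244, a receptor of natural killer and T cells. The cytoplasmic tails of most other members recruit the small adaptors SAP (SH2D1A) and EAT-2 (SH2D1B), Src-type kinases and the phosphatases SHP-1 (PTPN6) and SHIP-1 (INPP5D). SLAMF7, also called CS1, is abundant on normal and malignant plasma cells and is the target of the myeloma antibody elotuzumab. Raf and MEK act in sequence in the pathway that activates ERK.

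Replicates 3 and 4 of every group carry a letter R in their second label, which the sources used here do not explain, and replicates 1 and 2 do not. The SD of values within an array lay between 1.52 and 1.55 without the R mark and between 1.38 and 1.45 with it, and array medians lay between 6.88 and 6.97. All 9 plasma cell markers were above the median of all probe sets, 6.92, in every group. The summed marker level, as the array mean of the list, was 11.05 to 11.47 with DMSO, 10.86 to 11.06 with SB590885 and 11.08 to 11.62 with PD325901. Array means were 6.92 to 7.08 for 7 B cell markers, 6.87 to 7.19 for 8 T cell markers, 6.82 to 6.97 for 7 natural killer cell markers and 6.57 to 6.75 for 6 monocyte markers. A list of 14 genes restricted to other tissues lay at 6.73 to 6.90. In bulk RNA fewer cells with a transcript and less of it per cell cannot be told apart.

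Transcript of 3 members, CD48, SLAMF7 and LY9, was above the median of all probe sets on all 12 arrays. The other 5 members stayed at the level of the tissue-restricted genes. LY9 read 7.22 to 7.89, and SFTPC, the highest gene of the tissue-restricted list, read 7.61 to 7.92. The level of LY9 alone thus does not set it apart from background. CD48 was lower with either inhibitor, SLAMF7 was lower with SB590885 alone among the inhibitors, and LY9, measured by a single informative probe set, fell with PD325901. With SB590885, 2 of 8 members were called lower and 0 higher, against 1.69% of all genes lower and 1.59% higher. With PD325901, 2 of 8 were called lower and 0 higher, against 0.506% and 0.086% of all genes. Between the inhibitors 1 of 8 was called lower with SB590885 than with PD325901 and 0 higher, against 0.855% and 1.97%. The median difference over the 8 members was -0.02 with SB590885 and -0.01 with PD325901, close to the median of 0.00 over all genes in each. Because CD48 and SLAMF7 led to the choice of the family, nothing is read from these shares.

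**Figure D1:**
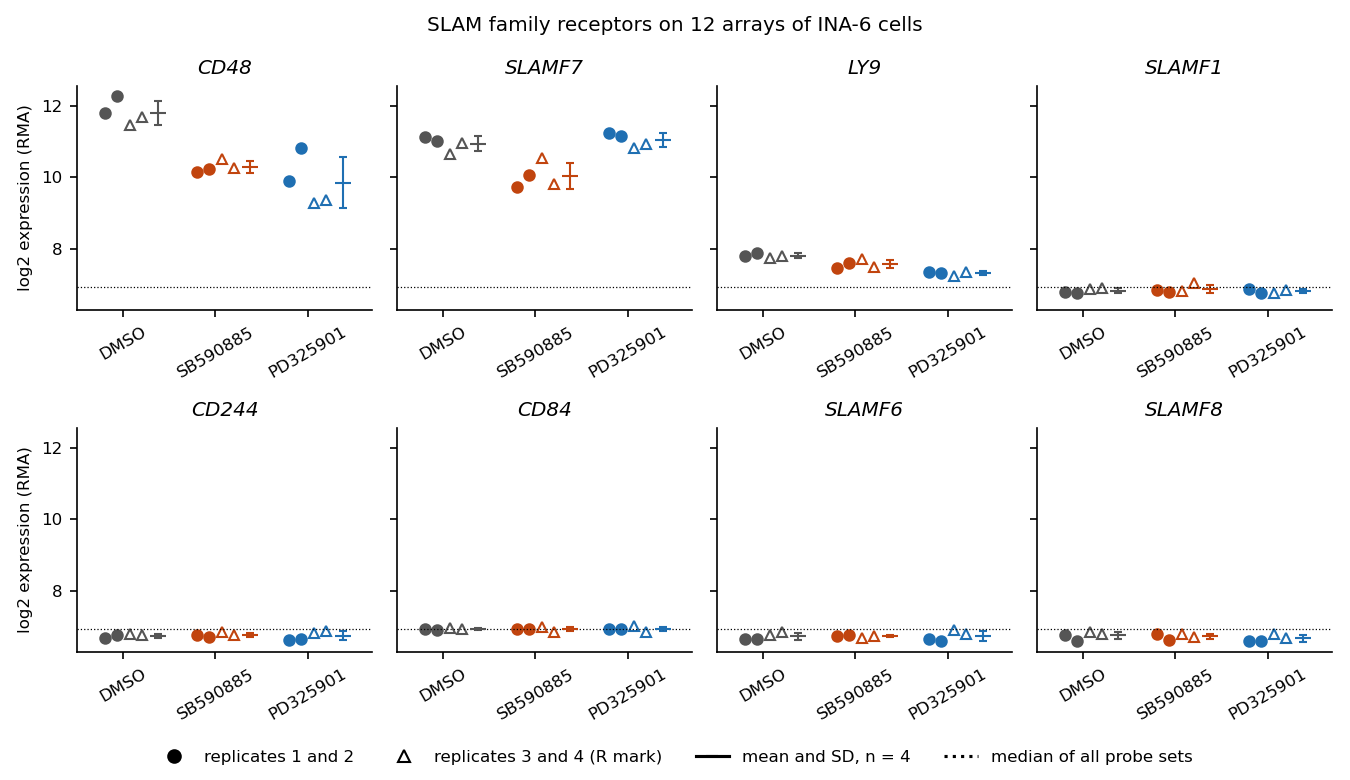
Log2 expression of the 8 SLAM family genes on each of 12 arrays, 4 per group, with the group mean and SD beside the points; the dotted line is the median of all probe sets, 6.92. CD48 and SLAMF7 lie far above the line, LY9 lies somewhat above it on every array, and the other 5 genes lie around it with overlapping groups.

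The promoter of CD48 is shown because this gene had the widest difference of the family, beside that of SLAMF1, which lies next to it on the chromosome and was at the background level, and that of CD244, which encodes its partner. The sequences cover 250 bases before to 50 bases after the transcription start in RefSeq, build GRCh38.p14, and all 3 are on the minus strand of chromosome 1, written 5′ to 3′ along the gene. CD48 is at chr1:160711773-160712072, SLAMF1 at chr1:160646995-160647294 and CD244 at chr1:160862838-160863137. Capitals mark AGGAAG, a core bound by ETS factors of the PU.1 kind, or TGANTCA, the AP-1 site.
CD48: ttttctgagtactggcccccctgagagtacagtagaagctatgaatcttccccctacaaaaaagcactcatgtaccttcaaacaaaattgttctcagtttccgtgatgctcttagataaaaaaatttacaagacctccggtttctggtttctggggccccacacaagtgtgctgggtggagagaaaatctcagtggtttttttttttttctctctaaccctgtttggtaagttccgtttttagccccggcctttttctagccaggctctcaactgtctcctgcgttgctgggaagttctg
SLAMF1: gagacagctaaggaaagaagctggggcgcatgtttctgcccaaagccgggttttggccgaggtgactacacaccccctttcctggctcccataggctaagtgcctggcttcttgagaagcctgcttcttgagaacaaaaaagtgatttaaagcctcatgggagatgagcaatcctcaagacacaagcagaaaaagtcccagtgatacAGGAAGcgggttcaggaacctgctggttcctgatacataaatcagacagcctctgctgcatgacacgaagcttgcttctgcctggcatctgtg
CD244: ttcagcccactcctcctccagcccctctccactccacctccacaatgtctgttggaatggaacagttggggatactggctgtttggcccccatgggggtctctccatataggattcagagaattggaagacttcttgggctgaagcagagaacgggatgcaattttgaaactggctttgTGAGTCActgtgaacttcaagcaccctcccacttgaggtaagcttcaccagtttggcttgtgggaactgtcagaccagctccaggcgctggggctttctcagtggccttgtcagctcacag

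Sequences were found for 5 of the 8 members, and SLAMF7, LY9 and CD84 had no entry in the table used. Both strands were searched for these motifs and for CCGGAA, another core of ETS sites. The search also took in the FOXO motif TGTTTAC and, for factors of the MYC kind, the E-box CACGTG. No match overlapped another in these windows. ETS and AP-1 factors are known nuclear targets of ERK signalling. In the CD48 window none of the 5 motifs was present. Over 35116 promoters of the same length, CCGGAA was found in 17.2%, the PU.1 kind in 33.6%, the AP-1 site in 7.71%, the FOXO motif in 3.42% and the E-box in 7.26%. AGGAAG stood 1 time each before SLAMF1 and SLAMF6, and TGANTCA 1 time each before CD244 and SLAMF8. The FOXO motif stood 1 time before SLAMF6 and the E-box 1 time before SLAMF8. These matches describe letters in a window and carry no measurement of binding.

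CD48, the GPI-anchored ligand, was measured best by probe set 204118_at. With DMSO its 4 arrays read 11.81, 12.29, 11.47 and 11.71 in the order of replicates 1 to 4. With SB590885 they read 10.15, 10.24, 10.52 and 10.26, and with PD325901 9.89, 10.84, 9.27 and 9.38. Every array with an inhibitor was below every DMSO array, whereas the arrays of the inhibitors overlapped, those with PD325901 being the more spread. The group means were 11.82 ± 0.34 with DMSO, 10.29 ± 0.16 with SB590885 and 9.85 ± 0.72 with PD325901 (SD, n = 4). CD48 was thus lower by a log2 difference of -1.52 (SE 0.29) with SB590885, a ratio of 0.348, and by -1.97 (SE 0.29) with PD325901, a ratio of 0.255. Both comparisons use the same 4 DMSO arrays. Among members of the family these are the widest differences from DMSO.

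The direct comparison of the inhibitors for CD48 gave a difference of 0.45 (95% interval -0.19 to 1.08), higher with SB590885, which did not pass the test (limma adjusted p = 0.649). It shares its arrays with the comparisons behind the choice of the family. The interval still holds a difference of about 1 on the log2 scale, so it does not show that the compounds left CD48 at a like level. Array pairs of the same number differed by 0.26, -0.60, 1.25 and 0.88. SB590885 was the lower of the pair for replicate 2 only. Without the R mark the mean difference was -0.17 and with it 1.06, and the test of the change between these sets of arrays did not pass after adjustment (limma adjusted p = 0.202, unadjusted p = 0.00336). On the arrays with the R mark alone, only 2 per group, CD48 was called higher with SB590885 than with PD325901 (limma adjusted p = 5.283e-05). Since so few arrays give the spread there and the change with the mark did not pass, nothing is concluded from this call.

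The difference of CD48 from DMSO was present in both sets of arrays. With SB590885 it was -1.85 without the R mark and -1.20 with it, and with PD325901 it was -1.68 and -2.26. A change of the difference with the mark did not pass for either inhibitor (limma adjusted p = 0.786 and 0.787). The second probe set of CD48, 237759_at, read 7.56 ± 0.29 with DMSO, 7.13 ± 0.09 with SB590885 and 7.17 ± 0.06 with PD325901 (SD, n = 4). Its differences were -0.43 and -0.39, smaller than those of the first probe set, and here too no inhibitor array reached the lowest DMSO array. When the probe sets were averaged, the CD48 difference was -0.98 with SB590885 and -1.18 with PD325901.

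Replicate 2 with DMSO, which gave the highest CD48 value of all arrays, and replicate 2 with PD325901, the highest of its group, also stood apart in interferon-induced genes. The median of 22 such genes, a list added after the values were seen, was 11.35 on the former and 11.10 on the latter, and between 7.05 and 8.34 on the other 10 arrays. The SB590885 array of the same number was at 8.34, the highest of those 10. Without replicate 2 in any group the CD48 difference was -1.35 with SB590885 and -2.15 with PD325901, so it was of similar size without these arrays. The difference between the inhibitors, 0.45 over all arrays, was 0.80 without replicate 2 and 0.78 without replicate 2 of PD325901 alone (limma adjusted p = 0.0804 and 0.0689). It was 0.26 without PD325901 replicate 3, 0.29 without PD325901 replicate 4, and 0.18 and 0.30 without all arrays of replicate 3 and of replicate 4, and did not pass in any of these. Of the 22 interferon-induced genes 0 were called in each comparison, with 1 lower at an unadjusted p under 0.05 with SB590885 against either other group. With the replicate block IFIT2 was higher and SAMD9L lower with SB590885 than with DMSO, and likewise than with PD325901.

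SLAMF7, the elotuzumab target, was measured best by probe set 222838_at. Its DMSO arrays read 11.13, 11.04, 10.65 and 10.97. With SB590885 they read 9.73, 10.07, 10.55 and 9.83, and with PD325901 11.25, 11.18, 10.84 and 10.95. All SB590885 arrays lay below all DMSO and all PD325901 arrays, although replicate 3 with SB590885 was only just below replicate 3 with DMSO. DMSO and PD325901 overlapped. The means were 10.95 ± 0.21, 10.05 ± 0.37 and 11.06 ± 0.19 (SD, n = 4) in the same order. SLAMF7 was therefore lower by -0.90 (SE 0.17) with SB590885, a ratio of 0.535, and differed by 0.11 (SE 0.17) with PD325901, a ratio of 1.08 (95% interval of the log2 difference -0.26 to 0.48).

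SLAMF7 was lower with the Raf inhibitor than with the MEK inhibitor by a log2 difference of -1.01 (SE 0.17, 95% interval -1.38 to -0.64), a ratio of 0.497 (limma adjusted p = 0.00860), in 4 of 4 pairs of the same number. This comparison shares the SB590885 arrays with the one behind the choice of the family. With PD325901 close to DMSO, it largely repeats the difference that led to the choice. Its p-values are therefore biased by the choice and are given as a description. The replicate number used as a block gave an adjusted p of 0.000304 in limma. The call was lost when all 3 arrays of replicate 1, 2 or 4 were left out (limma adjusted p = 0.0960, 0.0934 and 0.0802), with differences of -0.84, -0.98 and -0.97. It held when any single array was left out. The difference was -1.31 without the R mark and -0.71 with it, and the change between these sets did not pass (limma adjusted p = 0.397).

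All 3 probe sets of SLAMF7 showed the same order of groups. Probe set 219159_s_at read 8.74 ± 0.26 with DMSO, 7.98 ± 0.21 with SB590885 and 8.81 ± 0.26 with PD325901, and 234306_s_at read 7.92 ± 0.10, 7.44 ± 0.20 and 7.93 ± 0.13 (SD, n = 4). Tested over all probe sets, both were lower with SB590885 than with PD325901 (differences of -0.83 and -0.49, limma adjusted p = 0.0173 and 0.0282). They read the same gene on the same SB590885 arrays that led to the choice of the family. They are therefore no independent support. Neither probe set separated PD325901 from DMSO, with differences of 0.07 and 0.00.

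**Figure D2:**
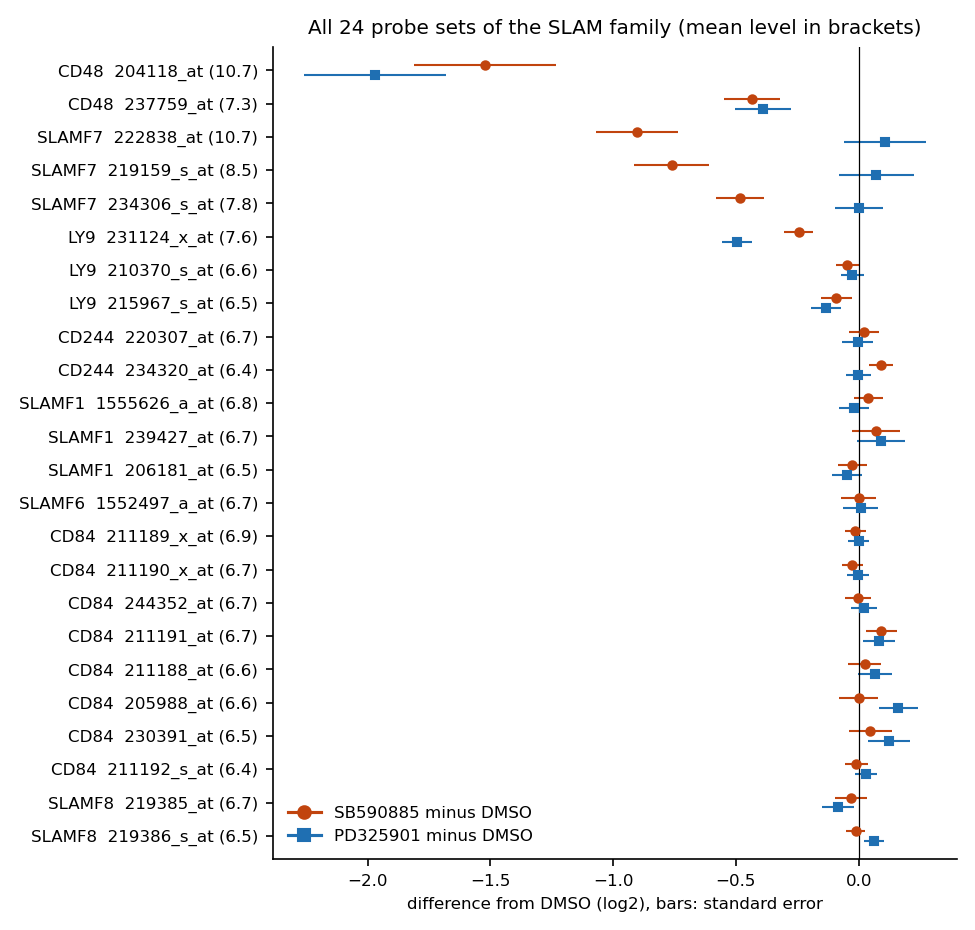
Difference from DMSO on the log2 scale for all 24 probe sets of the 8 genes, with SB590885 as circles and PD325901 as squares; bars are standard errors of the limma fit and brackets hold the mean level over 12 arrays. Both CD48 probe sets lie left of 0 for both inhibitors, the 3 SLAMF7 probe sets lie left of 0 for SB590885 only, and 1 of 3 LY9 probe sets stands apart from 0.

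LY9, a receptor that binds its own kind on lymphocytes and is also called SLAMF3, was measured best by probe set 231124_x_at. The ending x marks a set in which some probes can also match other sequences. Its DMSO arrays read 7.80, 7.89, 7.73 and 7.79. With SB590885 they read 7.45, 7.59, 7.71 and 7.48, and with PD325901 7.35, 7.31, 7.22 and 7.35. The 3 groups did not overlap and stood in the order DMSO, SB590885, PD325901, with replicate 3 of SB590885 close to the DMSO arrays. Means were 7.80 ± 0.06, 7.56 ± 0.12 and 7.31 ± 0.06 (SD, n = 4).

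LY9 fell with PD325901 by 0.50 on the log2 scale (SE 0.06), a ratio of 0.709, in 4 of 4 pairs (limma adjusted p = 0.00294). The call was lost when all arrays of replicate 2 or of replicate 4 were left out (limma adjusted p = 0.0532 and 0.0546). With SB590885 the difference was -0.24 (SE 0.06, 95% interval -0.38 to -0.11, limma adjusted p = 0.0558), and between SB590885 and PD325901 it was 0.25 (SE 0.06, 95% interval 0.12 to 0.39, limma adjusted p = 0.0537). Neither passed in the fit without the block. Both passed with the replicate number as a block (limma adjusted p = 0.00950 and 0.00788). The other probe sets of LY9, 210370_s_at and 215967_s_at, read below the median of all probe sets on every array. Their differences were -0.05 and -0.09 with SB590885 and -0.03 and -0.13 with PD325901, with overlapping groups, so the fall of LY9 rests on 1 of its 3 probe sets.

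With the block, which takes out what arrays of 1 number share, 3 of 8 members were called lower with SB590885, 2 of 8 lower with PD325901, and 1 lower and 1 higher between SB590885 and PD325901. The share of all genes called was also larger in these fits. It was 9.84% lower and 9.09% higher with SB590885, 6.18% lower and 1.96% higher with PD325901, and 5.73% lower and 12.4% higher between the inhibitors.

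**Figure D3:**
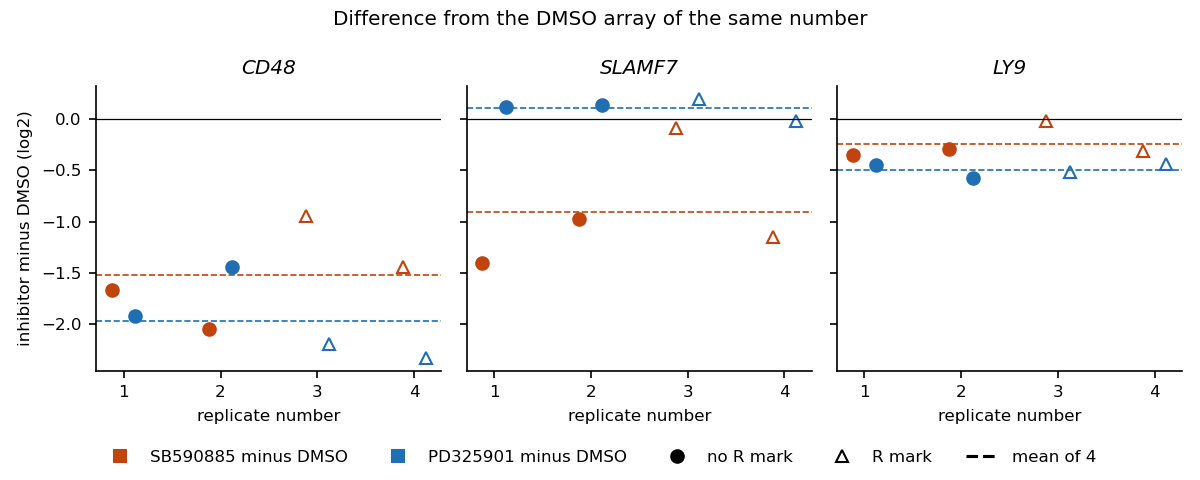
Difference of each inhibitor array from the DMSO array of the same replicate number for CD48, SLAMF7 and LY9, on the log2 scale; circles are arrays without and triangles arrays with the R mark, and dashed lines are means of 4 pairs. All 4 pairs of CD48 and LY9 lie below 0 for both inhibitors, SLAMF7 does so for SB590885 only, and pair 3 has the smallest SB590885 difference in all 3 genes.

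Pair 3 was the weakest with SB590885 in each of these genes. Its difference from DMSO was -0.94 for CD48, where the other pairs lay between -2.04 and -1.45. For SLAMF7 it was -0.09, against -1.40 to -0.97 in the others, and for LY9 it was -0.02, against -0.35 to -0.30. Without SB590885 replicate 3 the difference from DMSO was -1.60 for CD48, -1.07 for SLAMF7 and -0.30 for LY9, larger by construction, since this array was singled out for its small differences. With PD325901 pair 3 was unremarkable, at -2.19 for CD48, 0.19 for SLAMF7 and -0.51 for LY9.

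The other 5 members are SLAMF1, a self-binding receptor of T and B cells, CD244, the receptor for CD48, CD84 and SLAMF6, both self-binding, and SLAMF8, a member found mainly on myeloid cells. SLAMF1 read 6.82 ± 0.07 with DMSO, 6.86 ± 0.12 with SB590885 and 6.80 ± 0.06 with PD325901 (SD, n = 4). CD244 read 6.73 ± 0.06, 6.76 ± 0.06 and 6.73 ± 0.13. These levels are close to the list of tissue-restricted genes and the groups overlapped in both. CD84 read 6.92 ± 0.02, 6.91 ± 0.05 and 6.92 ± 0.06, SLAMF6 read 6.71 ± 0.11, 6.71 ± 0.03 and 6.72 ± 0.14, and SLAMF8 read 6.74 ± 0.11, 6.71 ± 0.08 and 6.65 ± 0.09.

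None of the 16 probe sets of these 5 genes had a mean at or above the median of all probe sets. Their single values lay between 6.25 and 7.03. Differences between groups ran from -0.09 to 0.06 over the 5 genes and the 3 comparisons. Of 15 tests 0 passed (lowest limma adjusted p = 0.862), 0 had an unadjusted p under 0.05, and 0 passed with the block (lowest limma adjusted p = 0.296). The 95% intervals stayed within -0.23 and 0.20. At this level a signal cannot be told apart from background on the array, so a small change in these transcripts would not be detectable here. A filter that kept genes with a group mean at or above the median of all probe sets retained 12866 genes, and 3 members among them, CD48, SLAMF7 and LY9.

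Of the adaptors and effectors that act behind SLAM receptors, 25 of 26 listed genes were measured. With SB590885, 4 of 25 were called lower and 0 higher, against 1.69% and 1.59% of all genes. With PD325901 3 were lower and 0 higher, against 0.506% and 0.086%. Between the inhibitors 1 was lower with SB590885 and 0 higher, against 0.855% and 1.97%. The list's median difference was -0.06, -0.03 and 0.05 in these comparisons, beside 0.00 over all genes in each. With the replicate block 7 were lower and 5 higher with SB590885, against 9.84% and 9.09% of all genes. In that fit 5 were lower and 1 higher with PD325901, against 6.18% and 1.96%. Between SB590885 and PD325901 it called 4 lower and 6 higher, against 5.73% and 12.4%.

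The inhibitory phosphatases fell with both compounds. PTPN6 (SHP-1) read 8.06 ± 0.07 with DMSO, 7.60 ± 0.12 with SB590885 and 7.34 ± 0.09 with PD325901 (SD, n = 4), which are falls of 0.46 and 0.71 on the log2 scale (limma adjusted p = 0.00572 and 0.000372). INPP5D (SHIP-1) read 8.64 ± 0.12, 8.18 ± 0.10 and 7.84 ± 0.15 and fell by 0.47 and 0.81 (limma adjusted p = 0.0130 and 0.000895). The lower level with PD325901 than with SB590885 did not pass for either gene (limma adjusted p = 0.0738 and 0.0569) and passed for both with the block (0.00906 and 0.000613). The call of INPP5D with SB590885 was lost when its probe sets were averaged (limma adjusted p = 0.119). VAV1, a signalling protein of blood cells, fell by 0.44 with PD325901 (limma adjusted p = 0.0149) and had a difference of -0.28 with SB590885 (limma adjusted p = 0.0538, with the block 0.00528). Its call with PD325901 was lost in 9 of 25 alternatives. These were quantile normalisation (limma adjusted p = 0.401), the intensity trend (0.0677), the removal of DMSO replicate 2 (0.0572) or of PD325901 replicate 3 or 4 (0.0561 and 0.0617), and that of all arrays of replicate 1, 2, 3 or 4 (0.0636, 0.173, 0.0824 and 0.197).

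Among the listed kinases only FGR was called between the compounds in the fit without the block. FGR, a Src-type kinase, read 9.26 ± 0.07 with DMSO, 8.78 ± 0.07 with SB590885 and 9.48 ± 0.13 with PD325901 (SD, n = 4). It fell by 0.48 with SB590885 (limma adjusted p = 0.00432), differed by 0.22 with PD325901 (0.303, with the block 0.0154), and was lower with SB590885 than with PD325901 by -0.70 (limma adjusted p = 0.000310). SLAMF7 likewise had its lowest level with SB590885. CSK, which holds Src-type kinases inactive, fell by 0.42 with SB590885 (limma adjusted p = 0.00201) and had a difference of -0.22 with PD325901 (0.0935, with the block 0.0117). With the block CSK was also lower with SB590885 than with PD325901 (-0.19, limma adjusted p = 0.0118). LYN, another listed kinase, differed by -0.50 with PD325901 (limma adjusted p = 0.635, with the block 9.47e-05). Between SB590885 and PD325901 the LYN difference was 0.38 (limma adjusted p = 0.522, with the block 0.000398). The calls with SB590885 were lost without the 3 arrays of replicate 1 for FGR, CSK, PTPN6 and INPP5D (limma adjusted p = 0.0618, 0.0542, 0.0670 and 0.138), and without those of replicate 2 for FGR, PTPN6 and INPP5D (0.0540, 0.0540 and 0.0967). That of INPP5D was also lost without those of replicate 4 (0.0557).

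The defining adaptors of the family did not pass in any comparison. SH2D1A (SAP) read 7.21 ± 0.10 with DMSO, 7.11 ± 0.06 with SB590885 and 7.18 ± 0.09 with PD325901 (SD, n = 4). SH2D1B (EAT-2) read 6.45 ± 0.12, 6.42 ± 0.05 and 6.52 ± 0.11, below the median of all probe sets. FYN, the Src-type kinase that SAP recruits, differed from DMSO by -0.02 with SB590885 and -0.04 with PD325901, with SE of 0.07. Differences of all 3 were within the spread of the arrays.

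**Figure D4:**
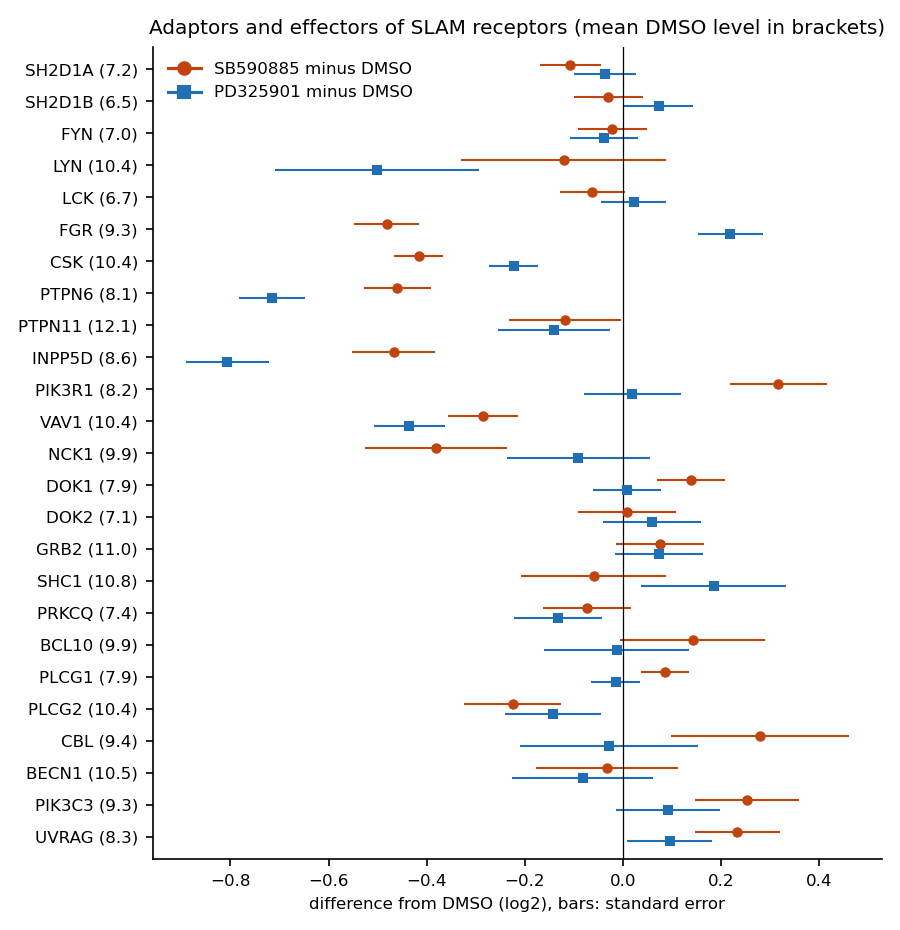
Difference from DMSO on the log2 scale for 25 adaptors and effectors of SLAM receptors, with SB590885 as circles and PD325901 as squares; bars are standard errors of the limma fit and brackets hold the mean DMSO level. PTPN6 and INPP5D lie left of 0 for both inhibitors, and FGR lies left of 0 for SB590885 and right of it for PD325901.

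Since CD48 needs a GPI anchor, the genes that build it were listed too. Of 27 measured genes of GPI anchor synthesis, 1 rose and 0 fell with SB590885, 0 of 27 passed with PD325901 (0 higher and 1 lower at an unadjusted p under 0.05, and 1 lower with the block), and 1 was higher with SB590885 than with PD325901. That gene was PGAP3, which remodels the anchor's lipid, with a difference of 0.24 from DMSO (limma adjusted p = 0.0289) and of 0.25 from PD325901 (0.0279). Each of these calls was lost in 14 of 25 alternatives, among them quantile normalisation (limma adjusted p = 0.0809 and 0.119), an intensity trend (0.0712 and 0.0670) and several single arrays left out. With the block 4 of 27 were higher and 4 lower with SB590885, and 5 higher and 2 lower with SB590885 than with PD325901. Of all genes 1.59% were higher and 1.69% lower with SB590885 (9.09% and 9.84% with the block). The shares were 0.086% and 0.506% with PD325901 (1.96% and 6.18%), and 1.97% and 0.855% between the inhibitors (12.4% and 5.73%). Among 11 other GPI-linked surface proteins 0 passed in each comparison, and at an unadjusted p under 0.05 the count was 0, 0 and 1. With the block, CD59 was higher and BST2 lower with SB590885, and PRNP was lower with PD325901 than in either other group. BST2 read 12.57 with DMSO and 12.47 with PD325901 on replicate 2, the arrays that stood apart in interferon-induced genes. It read at most 11.81 on the other arrays, and the part of replicate 2 in its call was not tested. The relatives SLAMF9, CD2 and CD58, the last 2 being a receptor and ligand pair built like CD244 and CD48, did not pass in any comparison, with 0 at an unadjusted p under 0.05 and, with the block, CD58 lower with SB590885.

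The members lie together on chromosome 1. In the order of RefSeq, SLAMF6, CD84, SLAMF1, CD48, SLAMF7, LY9 and CD244 followed each other with no other measured gene between them, and SLAMF8 stood apart. The 3 genes that differed, CD48, SLAMF7 and LY9, are neighbours in this run, while SLAMF1 on one side and CD244 on the other were at the background level. The next measured genes outside the run, VANGL2 and ITLN1, differed from DMSO by 0.06 and 0.00 with SB590885 and by -0.01 and -0.01 with PD325901.

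Around and between the members 38 other genes were measured, 18 between the outermost members and 10 on either side. With SB590885, 3 of 38 rose and 1 fell (4 and 2 with the block), with PD325901 0 passed (1 higher and 2 lower at an unadjusted p under 0.05, and 1 higher and 2 lower with the block), and between the inhibitors 0 passed (6 higher and 0 lower at an unadjusted p under 0.05, and 8 higher and 0 lower with the block). DCAF8, KLHDC9 and NIT1 rose by 0.32, 0.40 and 0.20 (limma adjusted p = 0.0269, 0.0323 and 0.0284), and PFDN2, a chaperone subunit, fell by 0.37 (limma adjusted p = 0.0382). Of 25 alternatives, these calls were lost in 12 for DCAF8, 10 for KLHDC9, 14 for NIT1 and 14 for PFDN2. Some single arrays left out were among them for each gene. Centring arrays on their median lost the calls of DCAF8, NIT1 and PFDN2 (limma adjusted p = 0.1035, 0.1238 and 0.0872). Quantile normalisation lost those of KLHDC9 and NIT1 (limma adjusted p = 0.1082 and 0.1437). The shares of all genes were 1.59% higher and 1.69% lower with SB590885 (9.09% and 9.84% with the block). They were 0.086% and 0.506% with PD325901 (1.96% and 6.18%), and 1.97% and 0.855% between the inhibitors (12.4% and 5.73%). No such share is given for the counts at an unadjusted p, and nothing is read from those counts. Differences of the 38 genes lay between -0.43 and 0.40 with SB590885 and between -0.72 and 0.30 with PD325901. Those of CD48 exceeded this range for both compounds, and that of SLAMF7 did so with SB590885. Both genes led to the choice of the family, so this is a description only.

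**Figure D5:**
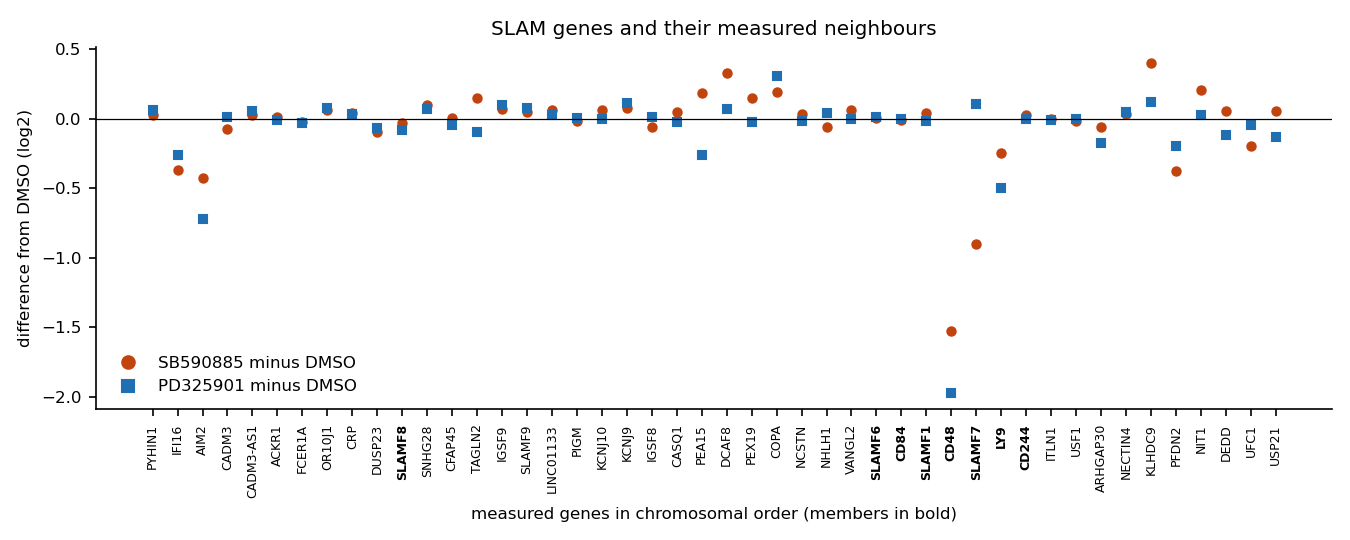
Difference from DMSO on the log2 scale for the 8 SLAM genes (bold) and 38 measured neighbours in their order on chromosome 1, with SB590885 as circles and PD325901 as squares. CD48 has the lowest values for both inhibitors, SLAMF7 next to it is low for SB590885 only, and most neighbours lie near 0.

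Genes with patterns most like those of CD48 and SLAMF7 were named by Pearson's r over the 12 arrays after the mean of arrays with and of arrays without the R mark was subtracted. The arrays share groups, numbers and processing, so r is given as a description. For CD48 they were GPRIN3 (r = 0.979), ARHGAP18 (0.968), SFMBT2 (0.968), GALM (0.967) and WIPF1 (0.967). GPRIN3 differed from DMSO by -0.79 with SB590885 and by -1.06 with PD325901. These values carry no test, since the gene was picked for its likeness to CD48 on the same arrays. Among the family LY9 was the most like CD48 (r = 0.885), and SLAMF7 had an r of 0.259 with CD48. For SLAMF7 the most alike were STT3B (r = 0.973), CHEK2 (0.968), GAS2 (0.967), MICALCL (0.961) and KANK1 (0.956). CHEK2, a checkpoint kinase of the DNA damage response, differed from DMSO by -0.54 with SB590885 and by 0.08 with PD325901, likewise given without a test. With the values as deposited, GPRIN3 and GALM remained among the 5 most alike for CD48 and CHEK2 and MICALCL for SLAMF7, where BTK, a kinase of the B cell receptor, joined them (r = 0.936).

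Some plasma cell markers were also lower with SB590885. Of 9 markers, SDC1 and XBP1 were called lower with SB590885 than with DMSO (differences of -0.55 and -0.62, limma adjusted p = 0.0398 and 0.0317). TNFRSF17, XBP1 and MZB1 were lower with SB590885 than with PD325901 (differences of -0.53, -0.78 and -0.61, limma adjusted p = 0.0346, 0.0113 and 0.00797). With PD325901 0 of 9 were called against DMSO, and 2 were higher and 1 lower at an unadjusted p under 0.05. Of all genes, 1.69% were lower with SB590885 than with DMSO and 0.855% lower than with PD325901 (9.84% and 5.73% with the block). With the replicate block MZB1 too was lower with SB590885 than with DMSO, and CD38 and POU2AF1 too were lower with SB590885 than with PD325901. CD38 read 10.95 with DMSO and 11.01 with PD325901 on replicate 2, and at most 9.55 on the other arrays. Those are the arrays that stood apart in interferon-induced genes, and their part in the CD38 call was not tested. With PD325901 against DMSO the block called SDC1 lower (a difference of -0.41, limma adjusted p = 0.000921) and TNFRSF17 and MZB1 higher (0.43 and 0.31, limma adjusted p = 0.00505 and 0.0105). Without the block none of these passed (limma adjusted p = 0.309 for SDC1, 0.216 for TNFRSF17 and 0.356 for MZB1). The part of the plasma cell markers in the SLAMF7 result was not tested. Of the other marker lists, 1 of 7 B cell markers (PAX5) and 1 of 8 T cell markers (CD8A) were lower with SB590885 than with DMSO, by -0.45 and -0.33 (limma adjusted p = 0.0195 and 0.0285). With the block PAX5 was lower and CD7, a T cell marker, higher with PD325901 than with DMSO, and CD8A was lower with SB590885 than with PD325901. The lists of natural killer cells, monocytes and other tissues had 0 calls in each comparison, with or without the block, and 1 monocyte marker was higher with PD325901 and 1 gene of other tissues higher with SB590885 than with PD325901 at an unadjusted p under 0.05. The difference between 3′ and 5′ control probe sets is a measure of RNA quality. For GAPDH it was 0.371 ± 0.033 with DMSO, 0.440 ± 0.035 with SB590885 and 0.425 ± 0.057 with PD325901 (SD, n = 4). For ACTB it was 1.578 ± 0.169, 1.651 ± 0.172 and 1.643 ± 0.101 in the same order. The part of RNA quality in these results was not tested either.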

How the data were processed

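The 12 arrays were Affymetrix HG-U133 Plus 2.0. The authors deposited log2 expression values per probe set made with RMA in R 3.0.1, per the submitters' processing notes. The sources used here do not say whether all arrays were normalised together. Of 54675 probe sets 62 were controls and went unused. A probe set was named when the platform annotation gave it exactly 1 symbol (41091 sets; 1801 had more and 11721 had no symbol). The brightest probe set by mean stood for each of 19775 genes.

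A group-means model over the 12 arrays was fitted in limma 3.58.1 (R 4.3.3) with Benjamini-Hochberg adjustment over all genes, and differences were called at an adjusted p under 0.05. The fit was tested on simulated data. Values after ± are SD. Counts at an unadjusted p under 0.05 are given without the share of all genes at that threshold, so nothing is read from them. No values of the authors were rescaled. The number of arrays limits the precision.

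Arrays of the same replicate number deviated together from their group means (r of 0.544 to 0.913 over 12 pairs). For other numbers of the same mark r was 0.123 to 0.646, and for arrays of different mark -0.718 to -0.443 over 24 pairs. The deviations thus also split by the R mark, although deviations within a group cancel, which by itself brings some negative r. Likeness by number was read as pairing. The main fit has no term for number or mark. A fit with number as a block is given beside results it changes. For the lists of adaptors, GPI genes and neighbours this is mostly as counts without gene names. Alternatives were the block, the R mark, leaving out arrays, scaling, a filter on low genes, averaged probe sets and an intensity trend. Members and lists were chosen with earlier results of these data known. The text names all members, list genes and neighbours that passed in any comparison of the main fit, SH2D1A, SH2D1B and FYN, and the 5 genes most alike to CD48 and SLAMF7. The interferon list and the genes named only for a call with the block were added after their values were seen.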

Additional observations from a re-analysis of the deposited data

How the results depend on the processing

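The count of members called with SB590885 against DMSO, 2 in all arrays, was 1 on the arrays with the R mark alone and lay between 0 and 3 on leaving out arrays. Without DMSO replicate 1 no member (0) was called, and the same held without the 3 arrays of replicate 1 or of replicate 4. It was 1 without DMSO replicate 2, SB590885 replicate 1, SB590885 replicate 2 or the 3 arrays of replicate 2. These counts rest on the genes that led to the choice of the family and are given as a description. The count with PD325901, 2, lay between 0 and 2 when arrays were left out, with 0 without replicate 4 in all groups and 1 without replicate 1, 2 or 3. It was 2 under each other alternative. Between SB590885 and PD325901 the count of 1 became 2 with the replicate block, 2 with a term for the R mark, 3 on the arrays with the R mark alone and 2 after quantile normalisation, and lay between 0 and 1 when arrays were left out. The replicate block gave 3 with SB590885 and 2 with PD325901. No member difference called over all arrays changed sign under any alternative run, whereas that of CD48 between the inhibitors, not called over all arrays, was 1.06 on the arrays with the R mark, where it was called, and -0.17 on those without. The difference of CD48 lay between -1.85 and -0.98 with SB590885 and between -2.30 and -1.18 with PD325901, and that of SLAMF7 with SB590885 between -1.19 and -0.62. Scaling moved the median of all genes by less than 0.1 on the log2 scale. The cause of these changes was not tested. Precision is limited by 4 arrays per group, and a small change in the 5 members at background would not be detectable.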
